A study of Mus musculus with 10 samples.

Results

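The genes described here are those that the deposited table assigns to the KEGG pathway "Protein processing in endoplasmic reticulum". The table listed 163 such genes among 55401. Of these, 142 had a mean of at least 0.5 FPKM (fragments per kilobase of transcript, scaled to library size) over the 10 libraries and were kept as members. A further 16 lay below that level, and Atf4, Ddit3, Ppp1r15a, Traf2 and Nfe2l2 were left out by the rule. The members nearest to the minimum were Mbtps2 at 0.515 FPKM inside it and Derl3 at 0.463 FPKM outside it. Liver RNA came from 10 mice, 5 of the genotype NIKflox (written NIKF/F in the series text) and 5 of the genotype NIKhKO (written NIKHKO). Both genotypes had received 5% ethanol in a Lieber-DeCarli liquid diet over 4 weeks, and no liver from mice without ethanol is used here. NIK is the NF-kB inducing kinase, encoded by Map3k14. The series title speaks of hepatic NIK. The driver of the deletion, the exons it removes, and the strain, sex and age of the mice were not given in the sources used here.

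Proteins bound for secretion enter the endoplasmic reticulum (ER) through the Sec61 translocon, receive N-linked glycans from the oligosaccharyltransferase, and fold with the help of lumenal chaperones, lectin chaperones and disulfide isomerases. Folded cargo leaves in vesicles coated by COPII, while misfolded proteins are returned to the cytosol and degraded by the proteasome, a route called ER-associated degradation. When unfolded proteins accumulate, the sensors IRE1 (Ern1), ATF6 and PERK (Eif2ak3) start the unfolded protein response, which raises transcription of chaperone genes. Hepatocytes secrete most plasma proteins, and this machinery is abundant in them.

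Total estimated counts ran from 47161869 to 65052525 per library. The targeted gene, Map3k14, read 0.553, 0.510, 0.585, 0.899 and 0.483 FPKM in NIKflox 1 to 5 and 0.347, 0.361, 0.443, 0.389 and 0.373 FPKM in NIKhKO 1 to 5, so that every NIKhKO library lay below every NIKflox library. Its mean of 0.494 FPKM kept it out of the genes tested. A pair of NIKflox libraries stood apart. Heart muscle markers (6 genes, among them Actc1 and Myl2) summed to 5.91 FPKM in NIKflox 2 and 26.1 FPKM in NIKflox 4, where the other 8 libraries lay between 0.0116 and 0.825 FPKM. NIKflox 4 also had the lowest sum of 5 hepatocyte markers, Alb among them, at 36940 FPKM, with 40660 to 51940 FPKM elsewhere. NIKflox 2 had the highest sum of 7 stellate cell markers, 78.3 FPKM, with 31.7 to 51.7 FPKM elsewhere. Cholangiocyte markers (5 genes) summed to 26.1 to 46.2 FPKM in NIKflox and 15.8 to 26.9 FPKM in NIKhKO. Adipose markers (4 genes) summed to 423 to 658 FPKM in NIKflox and 634.5 to 1562 FPKM in NIKhKO. Only 2 of the 4 adipose genes were tested, 1 with a positive and 1 with a negative log2 fold change. Their sum is therefore not a trend of the whole list. B and plasma cell markers (7 genes) summed to 3.32 to 7.21 FPKM in NIKflox and 4.64 to 12.3 FPKM in NIKhKO. Acinar pancreas markers (5 genes) were at or below 0.480 FPKM in every library, with Cpa1, Prss2 and Amy2a5 at a count of 0 throughout. Mitochondrial genes took 10.6%, 11.1%, 9.24%, 7.16% and 8.90% of the estimated counts in NIKflox 1 to 5 and 8.76%, 8.65%, 12.2%, 12.8% and 11.6% in NIKhKO 1 to 5, lowest in NIKflox 4 and highest in NIKhKO 3 and 4. The part of these cells and of the mitochondrial share in the results was not tested. Fewer cells of a type and less RNA per cell cannot be told apart in bulk liver. Results are given below with and without NIKflox 2 and 4.

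No ER protein processing gene passed the test between the genotypes after adjustment. In edgeR's quasi-likelihood test 0 of the 142 members passed an adjusted p below 0.05, where 3 of 12730 tested genes did (0.0236%), 0.00786% lower and 0.0157% higher, and the lowest adjusted p of a member was 0.23, for Ero1lb. Below that threshold the members leaned to lower values in NIKhKO. Their log2 fold changes (NIKhKO minus NIKflox) were negative for 101 and positive for 41, with a median of −0.09, against a median of −0.01 and 51.8% negative over all tested genes. On log2(FPKM + 1) in limma 83.1% of members were negative, against 64.1% of all genes. At an unadjusted p below 0.05, 27 members (19.0%) were lower, against 5.14% of all tested genes, and 1 was higher, against 4.85% (9.99% of all tested genes in either direction). DESeq2 called 2 members, Ero1lb (adjusted p = 0.0098) and Dnajb1 (adjusted p = 0.041), both lower. These are 1.41% of the members, where DESeq2 called 0.636% of all tested genes lower and 1.63% in either direction, and a count of 2 is too small to read as a result about the members.

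The lean depended on NIKflox 2 and 4. Without both, 8 members (5.63%) were lower at an unadjusted p below 0.05, against 4.16% of all tested genes, the median was −0.02, and 74 of 142 (52.1%) were negative, against 49.4% of all genes. The 8 were Dnajb1, Sar1a, Dnajc3, Sec61a1, Uggt1, Yod1, Sec61b and Ero1lb. Leaving out single libraries, the count of 27 became 17 without NIKflox 2 (11.97%, all tested genes 5.2%). It was 13 without NIKflox 4 (9.155%, all tested genes 4.35%) and 17 without NIKhKO 2 (11.97%, all tested genes 4.14%). The count rose to 34 without NIKflox 3 (23.94%, all tested genes 4.43%) and 33 without NIKflox 5 (23.24%, all tested genes 4.44%). Without any other single library it lay between 19 and 22. In each of these cases the share of members lower stayed above that of all tested genes. NIKflox 4 held the highest FPKM of the 10 libraries for 77 members (54.2%), against 24.1% of all tested genes. NIKflox 2 and 4 were together the highest pair for 50 members (35.2%), against 5.55% of all tested genes.

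The members were grouped by what their proteins do. Disulfide isomerases and oxidases had a median log2 fold change of −0.34 (8 of 8 negative), lumenal chaperones −0.40 (7 of 8), the translocon −0.24 (12 of 13), the oligosaccharyltransferase −0.20 (6 of 7) and lectin chaperones with glycan trimming enzymes −0.15 (10 of 13). The other roles lay closer to all genes. COPII coat and cargo export had a median of −0.09 (10 of 15) and death and kinase signalling −0.06 (5 of 8). Cytosolic chaperones and ubiquitin factors had −0.05 (15 of 25) and ER-associated degradation −0.04 (20 of 33). The unfolded protein response sensors and factors had −0.02 (8 of 12). Without NIKflox 2 and 4 the first 5 medians were −0.16, −0.12, −0.11, −0.06 and −0.12 in the same order, each still below 0. Those of COPII, ER-associated degradation and the sensors and factors were above 0, at 0.06, 0.04 and 0.04. Of NIKflox 1, 3 and 5, NIKflox 1 was highest for disulfide isomerases, lumenal chaperones and the translocon. Its mean log2(FPKM + 1), centred on the 10 libraries, was 0.19, 0.11 and 0.10. NIKflox 3 and 5 lay at or below −0.003 in these roles, above the NIKhKO means of −0.18, −0.18 and −0.11. Differences between roles were not tested.

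**Figure D1:**
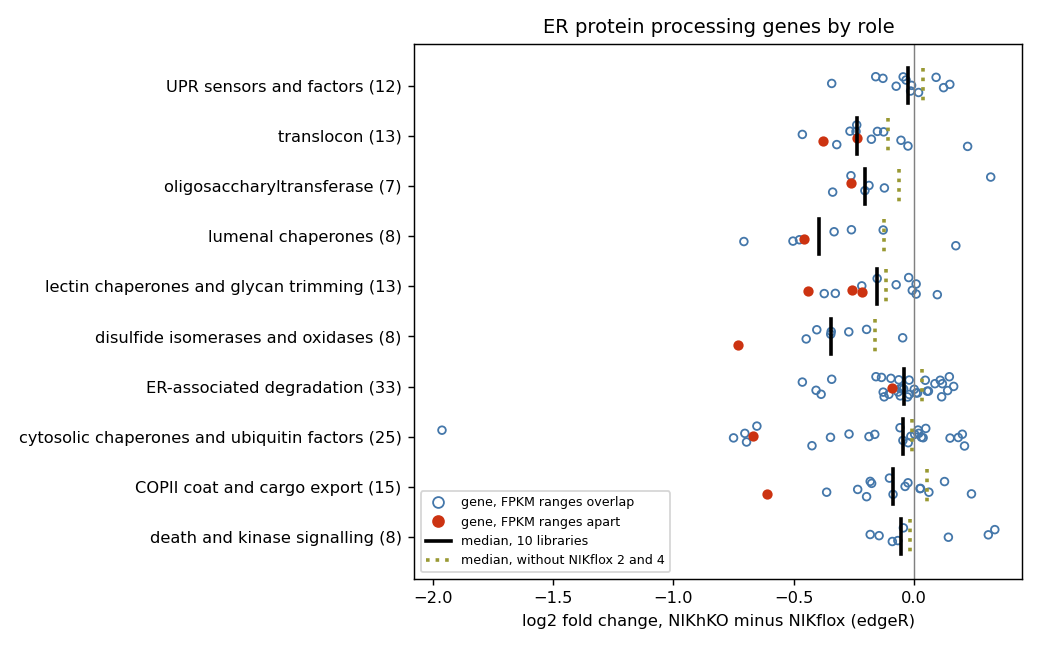
Log2 fold change (NIKhKO minus NIKflox, edgeR) of each of the 142 members, 1 point per gene, by role with the number of genes in brackets. Filled red points are the 11 genes whose FPKM ranges did not overlap. Black bars are medians over all 10 libraries and dotted bars medians without NIKflox 2 and 4. The dotted bars lie on the other side of 0 for COPII coat, ER-associated degradation and the sensors and factors. In the other roles they lie closer to 0.

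Ranges of FPKM did not overlap between genotypes for 11 members (7.75%), all lower in NIKhKO, against 1.59% of tested genes lower and 0.605% higher, or 2.19% in either direction. The 11 were Canx, Dnajb1, Dnajc3, Ero1lb, Ganab, Rrbp1, Sar1a, Sec61a1, Stt3b, Ubqln1 and Uggt1. The count moved with the scaling, and 64.4% of all tested genes had a lower mean FPKM in NIKhKO. On counts scaled to library size by TMM, 3 members (2.11%) had ranges apart and lower, Dnajb1, Ero1lb and Ganab, all among the 11, against 0.864% of all tested genes lower and 1.24% higher. Fewer libraries make ranges separate more often. Without NIKflox 2 and 4 the FPKM ranges of 12 members (8.45%) were apart, all lower, against 4.12% of all tested genes lower. Without NIKhKO 4 they were apart for 19 members, 18 lower (12.7%), against 3.2% of all tested genes lower, and Sar1b higher.

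Among the lumenal chaperones, Hspa5 encodes BiP, the main Hsp70 of the ER and the protein that holds the sensors inactive. It read 141, 178, 108, 238 and 103 FPKM in NIKflox 1 to 5 and 119.5, 55.2, 105, 62.8 and 103 FPKM in NIKhKO 1 to 5. The genotypes overlapped, with NIKflox 3 and 5 among the NIKhKO values, and NIKhKO 2 and 4 lowest. Hspa5 (ENSMUSG00000026864, chromosome 2, 34771970 to 34777547) had a log2 fold change of −0.71 (SE 0.27, edgeR adjusted p = 0.42), and −0.35 without NIKflox 2 and 4. Hsp90b1, which encodes the Hsp90 of the ER, GRP94, read 164, 184, 125, 212 and 133 FPKM against 135, 138, 113, 117.5 and 119 FPKM, a log2 fold change of −0.33 (SE 0.13, edgeR adjusted p = 0.44). Here too NIKflox 3 and 5 lay within the NIKhKO range.

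Dnajc3, a lumenal J protein also known as p58IPK, had the smallest unadjusted p of the lumenal chaperones (0.0041). Its levels were 34.2, 39.0, 29.0, 42.3 and 27.6 FPKM in NIKflox and 21.5, 23.7, 24.9, 27.0 and 22.3 FPKM in NIKhKO, so that the ranges were apart by a narrow gap between NIKhKO 4 and NIKflox 5. The log2 fold change was −0.46 (SE 0.13, edgeR adjusted p = 0.26), and −0.29 without NIKflox 2 and 4. Dnajb11, a J protein that loads clients onto BiP, had a log2 fold change of −0.48, and Hyou1, the large Hsp70-like nucleotide exchange factor of BiP, −0.50. Hyou1 read 16.4 and 23.6 FPKM in NIKflox 2 and 4 and 8.29 to 11.5 FPKM in the other NIKflox libraries, within the NIKhKO range of 7.35 to 12.5 FPKM, and its log2 fold change without the pair was 0.01. Dnajc1 was the 1 member of this role with a positive value, 0.17.

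**Figure D2:**
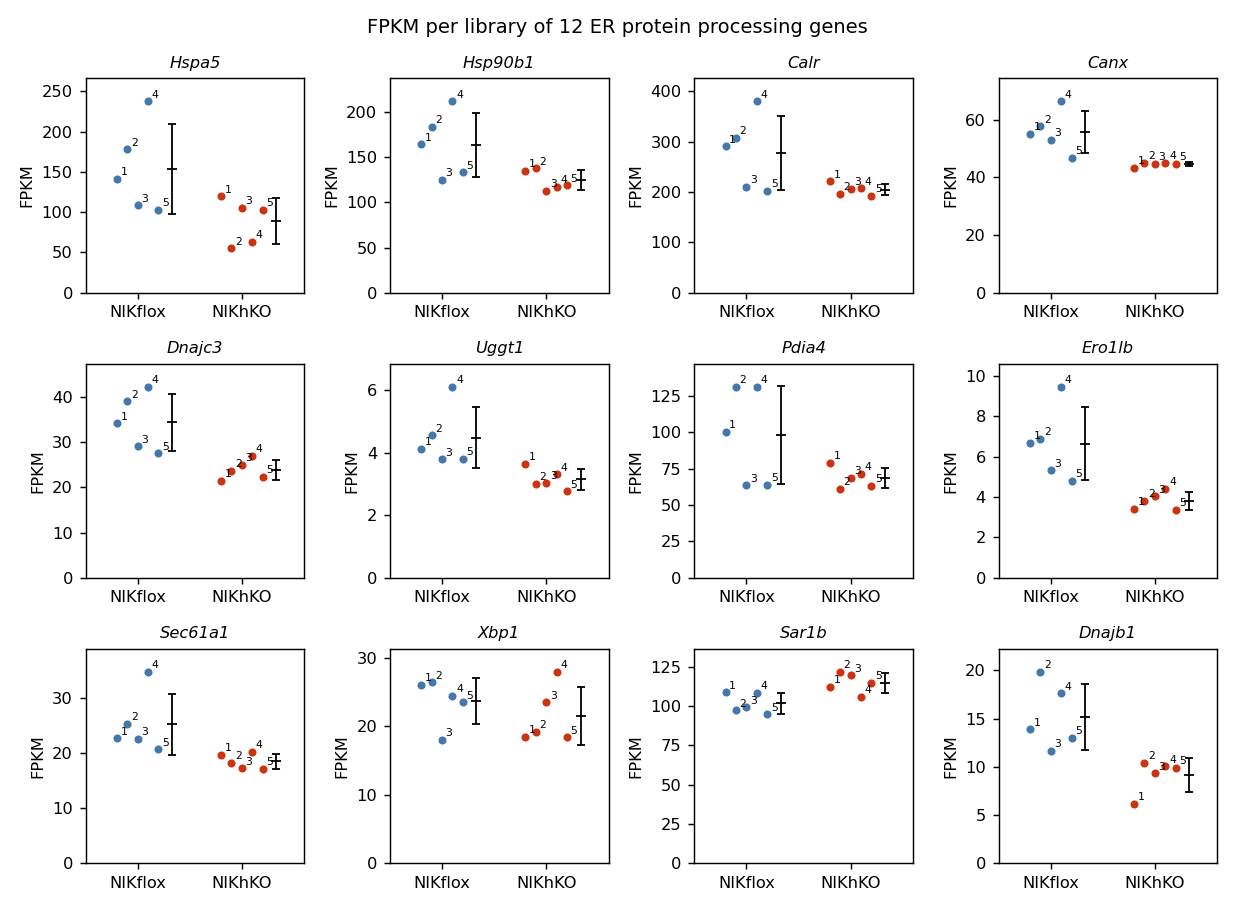
FPKM per library of 12 members in NIKflox (blue) and NIKhKO (red) livers, with replicate numbers beside the points and the mean and SD (n = 5) as black bars. NIKflox 4 is highest for 8 of the 12 genes, NIKflox 2 for Pdia4 and Dnajb1, and a NIKhKO library for Xbp1 and Sar1b.

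Promoter windows were searched because most lumenal chaperone genes were highest in the same library, though their lowest libraries differed. A further reason was a known promoter element that links such genes to the unfolded protein response. The ER stress element (ERSE), bound by NF-Y and ATF6, was searched as CCAAT, any 9 bases and CCACG, on both strands, in RefSeq windows from 250 bases before to 50 after each transcript start (GRCm38.p6). Of the 142 members 116 matched a gene of that table, and 7 of them (6.03%) held the element, against 37 of 27025 genes (0.137%), or 0.119% of all windows. The 7 were Calr, Canx, Dnajc3, Hsp90b1, Hspa5, Pdia6 and Syvn1. ERSE-II, searched as ATTGG, any 1 base and CCACG, was found for Dnajb11 and Herpud1 (1.72% of matched members), against 0.0444% of genes. The core of the unfolded protein response element (UPRE), TGACGTGG, was found for 6 members (5.17%), against 0.714% of genes. The 6 were Mapk8, Sec23a, Sec24d, Txndc5, Ube2j1 and Vcp. A heat shock element, searched as GAA, TTC and GAA with any 2 bases between each, was found for Hsph1, Nploc4 and Sec62. These are 2.59% of the matched members, against 0.662% of genes. No match of these motifs overlapped another in the stretches printed here. A match is a description of the letters in the window and not a measured binding site. ERSE was chosen as an element already known from such genes. Its higher share among the members, and those of the related elements, are therefore not an independent finding.

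The stretches that hold ERSE or ERSE-II upstream of the start are printed 5′ to 3′ on the strand of the gene, with the match in capitals, for all members with such a match wholly upstream of the RefSeq start. The match of Dnajb11 did not lie wholly upstream of its start and is not printed. For Hspa5 the gene model of the deposited table begins upstream of the RefSeq start, so that its stretch lies inside the coordinates that the table gives for the gene. CCAAT comes first where ERSE lies on the gene's strand, and CGTGG comes first where it lies on the other. The ERSE-II match of Herpud1 lies on the gene's strand and begins with ATTGG.
Hspa5, chr2:34772010-34772058, plus strand: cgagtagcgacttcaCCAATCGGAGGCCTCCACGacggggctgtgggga
Hsp90b1, chr10:86705518-86705671, minus strand: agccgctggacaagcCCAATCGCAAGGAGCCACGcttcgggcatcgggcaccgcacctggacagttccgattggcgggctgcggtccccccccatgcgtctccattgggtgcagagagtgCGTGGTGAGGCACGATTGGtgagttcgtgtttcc
Calr, chr8:84847060-84847108, minus strand: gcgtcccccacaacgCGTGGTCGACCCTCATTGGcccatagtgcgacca
Canx, chr11:50325785-50325833, minus strand: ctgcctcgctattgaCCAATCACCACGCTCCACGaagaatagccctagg
Dnajc3, chr14:118937812-118937860, plus strand: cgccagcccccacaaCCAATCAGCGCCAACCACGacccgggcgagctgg
Pdia6, chr12:17266476-17266524, plus strand: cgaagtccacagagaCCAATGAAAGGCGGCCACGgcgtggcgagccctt
Syvn1, chr19:6046517-6046565, plus strand: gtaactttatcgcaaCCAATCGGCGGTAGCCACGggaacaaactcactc
Herpud1, chr8:94386362-94386402, plus strand: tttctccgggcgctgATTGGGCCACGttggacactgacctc
Hsp90b1 held 2 copies, in opposite orientations, and each of the others 1.

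The log2 fold changes of all 7 members with ERSE were negative (median −0.40), and 6 of them had an unadjusted p below 0.05, against 9.99% of all tested genes in either direction. Of the 109 matched members without it 73 were negative, with a median of −0.06, and 15 had an unadjusted p below 0.05. Without NIKflox 2 and 4 the medians were −0.16 and 0.01. Without that pair Dnajc3 was the only one of the 7 with an unadjusted p below 0.05, and Syvn1 had a positive value, 0.05. Of the 7, all but Syvn1 belong to the lumenal chaperone, lectin or disulfide isomerase roles. The median was −0.09 for the 6 members with the UPRE core and −0.08 for those without it, with 0 of the 6 at an unadjusted p below 0.05. It was −0.05 for the 3 members with the heat shock element and −0.09 for those without it, with 1 of the 3, Hsph1, at an unadjusted p below 0.05. Only that exact pattern was searched, the group without it holds Hspa1a, Hspa1b and Dnajb1, and Hspa8, Hsp90aa1, Hsp90ab1 and Cryab had no window. The comparison therefore cannot speak of heat shock elements in general. The values of the ERSE-II members, Dnajb11 and Herpud1, were −0.48 and −0.34. No test of any motif was made.

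**Figure D3:**
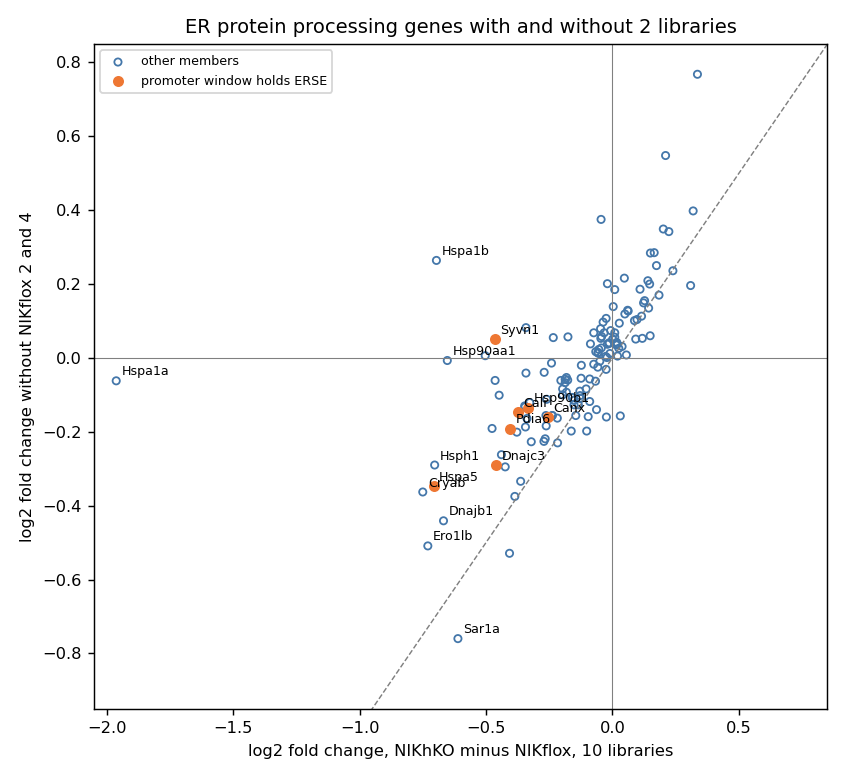
Log2 fold change of the 142 members over all 10 libraries (x axis) against that without NIKflox 2 and 4 (y axis), with the dashed line marking equal values. Orange points are the 7 members with ERSE in a promoter window and blue circles the rest, 26 of which had no window to search; Hspa1a moves from −1.962 to −0.06, while Ero1lb, Dnajb1, Sar1a and Yod1 stay below −0.4 on both axes.

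The lectin chaperones hold newly glycosylated proteins until they fold. Canx, which encodes the membrane-bound calnexin, read 55.2, 57.8, 53.0, 66.4 and 46.8 FPKM in NIKflox and 43.5, 45.2, 44.8, 45.1 and 44.8 FPKM in NIKhKO. The NIKhKO values were nearly level and all below NIKflox 5, the lowest NIKflox library. Its log2 fold change was −0.26 (SE 0.09, edgeR adjusted p = 0.37). Calr, which encodes the soluble calreticulin, read 291, 308, 210.2, 380.2 and 202.5 FPKM against 221, 197, 207, 207 and 193 FPKM, with NIKflox 3 and 5 inside the NIKhKO range, and a log2 fold change of −0.37 (SE 0.16, edgeR adjusted p = 0.46).

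Uggt1, the glucosyltransferase that returns unfolded glycoproteins to calnexin, read 4.13, 4.56, 3.79, 6.12 and 3.80 FPKM against 3.64, 3.02, 3.04, 3.30 and 2.76 FPKM. The ranges were apart, and the log2 fold change was −0.44 (SE 0.13, edgeR adjusted p = 0.29), or −0.26 without NIKflox 2 and 4. Ganab, the catalytic subunit of glucosidase II, read 32.5 to 40.9 FPKM in NIKflox and 26.9 to 31.3 FPKM in NIKhKO, giving a log2 fold change of −0.22 (SE 0.08, edgeR adjusted p = 0.36). Of this role it alone had ranges apart on TMM-scaled counts too. Edem1, a mannosidase-like protein that directs glycoproteins to degradation, had a log2 fold change of −0.01, with an approximate 95% interval from its SE of −0.16 to 0.15.

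Disulfide isomerases form and rearrange disulfide bonds, and the Ero1 oxidases recharge them. Ero1lb, the oxidase ERO1-beta, had the smallest p of all members (unadjusted p = 0.00093, edgeR adjusted p = 0.23). It read 6.70, 6.91, 5.32, 9.49 and 4.82 FPKM in NIKflox and 3.41, 3.82, 4.04, 4.41 and 3.38 FPKM in NIKhKO, 57.4% of the NIKflox mean, with every NIKhKO library below every NIKflox library. Its log2 fold change was −0.73 (SE 0.16), between −0.82 and −0.59 when any 1 library was left out, and −0.51 without NIKflox 2 and 4. The related oxidase Ero1l had a log2 fold change of −0.27 (edgeR adjusted p = 0.61).

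Pdia4 read 100.1, 131, 63.6, 131 and 64.0 FPKM in NIKflox and 78.8, 61.3, 68.6, 71.3 and 63.1 FPKM in NIKhKO. NIKflox 1, 2 and 4 lay above all NIKhKO libraries and NIKflox 3 and 5 among them, and the log2 fold change was −0.45 (SE 0.21, edgeR adjusted p = 0.52), or −0.10 without NIKflox 2 and 4. Pdia6 and Pdia3, which encode further disulfide isomerases, had log2 fold changes of −0.40 and −0.35, and Erp29, a related protein without the active-site cysteines, −0.34. P4hb, the founding disulfide isomerase, had the highest mean level of the members, at 518 FPKM. It read 735 FPKM in NIKflox 4 and 479 to 499 FPKM in the other NIKflox libraries, against 446 to 615 FPKM in NIKhKO. Its log2 fold change of −0.05 became 0.08 without NIKflox 2 and 4.

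The translocon carries nascent chains across the ER membrane. Sec61a1, its pore subunit, read 22.7, 25.3, 22.6, 34.8 and 20.7 FPKM in NIKflox and 19.6, 18.3, 17.2, 20.2 and 17.1 FPKM in NIKhKO. The ranges were apart by the gap between NIKhKO 4 and NIKflox 5, and the log2 fold change was −0.38 (SE 0.12, edgeR adjusted p = 0.33). Sec61b, a small subunit of the channel, had a smaller p (unadjusted p = 0.0061) and a log2 fold change of −0.27 (SE 0.08), with ranges that overlapped only through NIKhKO 1 at 35.2 FPKM and NIKflox 5 at 35.1 FPKM. Rrbp1, a ribosome-binding protein of the rough ER, read 47.7 to 61.9 FPKM against 40.6 to 46.8 FPKM, and its log2 fold change was −0.24. Tram1, a membrane protein next to the channel, and Ssr1, a subunit of the translocon-associated complex, had log2 fold changes of −0.32 and −0.24, both with overlapping ranges. In this role Ssr2, of the same complex as Ssr1, was the 1 member with a positive value, 0.22 (edgeR adjusted p = 0.76).

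The oligosaccharyltransferase moves the preassembled glycan onto the nascent chain. Its catalytic subunits are Stt3a and Stt3b. Stt3b read 20.5, 23.5, 21.9, 27.9 and 20.7 FPKM against 18.7, 16.8, 19.4, 19.4 and 16.7 FPKM, with ranges apart and a log2 fold change of −0.26 (SE 0.10, edgeR adjusted p = 0.40). Rpn1, a subunit that binds substrates, had a log2 fold change of −0.34 (SE 0.12) and Ddost −0.19 (SE 0.09). Tusc3, an accessory oxidoreductase subunit, was the positive exception at 0.32 (edgeR adjusted p = 0.70).

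The role of unfolded protein response sensors and factors had a median near that of all genes. Its 12 genes include some that are not sensors, such as Eif2s1, Mbtps1 and Eif2ak4. At an unadjusted p below 0.05 there were 0 of 12, which is too few genes to set apart from the 9.99% of all tested genes. Xbp1, the transcription factor activated by IRE1 through splicing, read 26.03, 26.5, 18.01, 24.4 and 23.5 FPKM in NIKflox and 18.5, 19.2, 23.5, 28.0 and 18.4 FPKM in NIKhKO. The ranges overlapped, with NIKhKO 4 the highest library, and the log2 fold change was −0.07 with an approximate 95% interval of −0.39 to 0.24. Spliced and unspliced Xbp1 are not separated in a table of genes. The log2 fold changes of Ern1, Atf6, Atf6b and Eif2ak3 were −0.13, −0.16, −0.03 and −0.05, with edgeR adjusted p-values from 0.71 to 0.98. Eif2ak3, which encodes PERK, read 3.38 and 3.14 FPKM in NIKflox 2 and 4 and 1.34 to 2.03 FPKM in the other NIKflox libraries, and its log2 fold change was 0.38 without the pair. Wfs1, an ER membrane protein that restrains ATF6, had the smallest unadjusted p of the role (0.095), at a log2 fold change of −0.34.

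**Figure D4:**
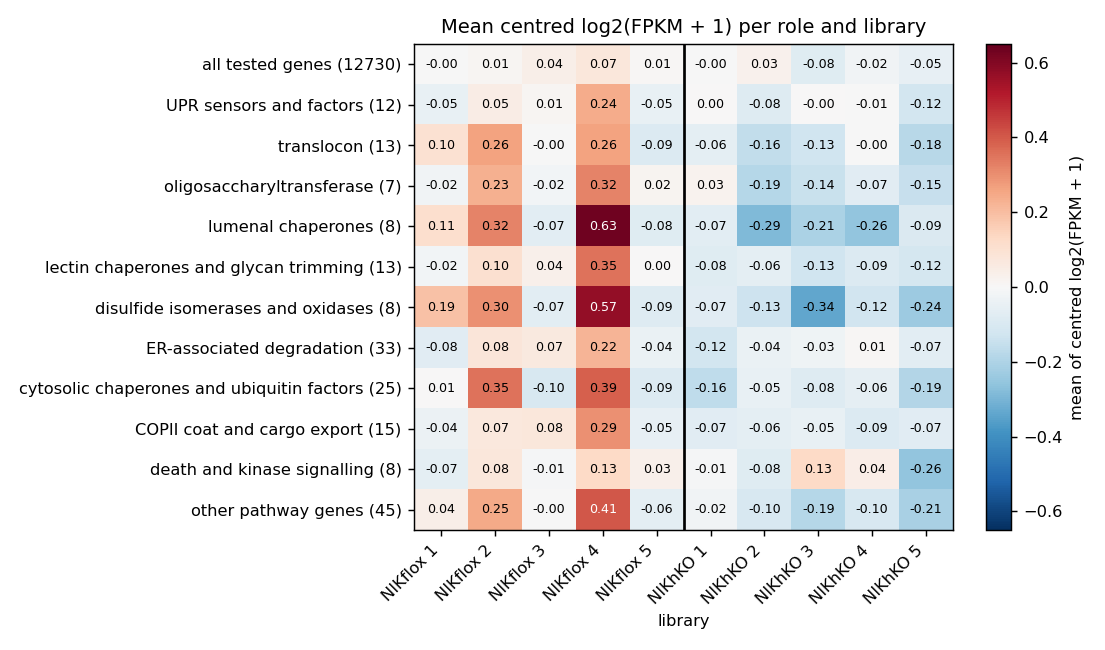
Mean over the genes of each role of log2(FPKM + 1), centred on the mean of the 10 libraries, for each library (columns, NIKflox left of the line), with the number of genes in brackets. Lumenal chaperones reach 0.63 in NIKflox 4 and 0.32 in NIKflox 2, while NIKflox 3 and 5 lie at −0.07 and −0.08, level with NIKhKO 1 at −0.07 and NIKhKO 5 at −0.09.

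Among the NIKflox libraries the lumenal chaperones and the disulfide isomerases had the widest spread of the 10 roles. The mean centred log2(FPKM + 1) of the 8 lumenal chaperones was 0.11, 0.32, −0.07, 0.63 and −0.08 in NIKflox 1 to 5 and −0.07, −0.29, −0.21, −0.26 and −0.09 in NIKhKO 1 to 5, while all tested genes lay between −0.08 and 0.07. NIKflox 1, 2 and 4 were thus above all NIKhKO livers and NIKflox 3 and 5 level with the upper NIKhKO livers. The summed level of all 142 members was 4321, 4736, 3755, 5665 and 3800 FPKM in NIKflox and 3974, 3728, 3660, 3659 and 3499 FPKM in NIKhKO. NIKflox livers differed among themselves more than NIKhKO livers did. The SD of log2(FPKM + 1) was larger in NIKflox for 104 of 142 members (73.2%), against 53.9% of all tested genes. Over NIKflox 1, 3 and 5 it was larger for 66 members (46.5%), against 40.6% of all tested genes.

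Log2 fold changes of the genes of ER-associated degradation lay mostly near 0. Syvn1, which encodes the ubiquitin ligase HRD1, read 18.4, 30.5, 12.3, 26.4 and 9.42 FPKM in NIKflox and 11.8, 11.2, 17.8, 13.8 and 12.2 FPKM in NIKhKO. NIKflox 2 and 4 were the highest libraries and NIKflox 5 the lowest, so that the log2 fold change of −0.46 (SE 0.30, edgeR adjusted p = 0.67) was 0.05 without the pair. Herpud1, an ER membrane protein that joins the ligase complex, showed the same order at the top, with 131 and 94.6 FPKM in NIKflox 2 and 4, and its log2 fold change of −0.34 was 0.08 without them. Sel1l, the partner of HRD1, and the Derlin genes Derl1 and Derl2 had log2 fold changes of 0.05, −0.05 and −0.06. Derl3, below the minimum level, read 2.003 FPKM in NIKflox 2 and 0.0773 to 0.755 FPKM in the other libraries.

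Yod1, a deubiquitinating enzyme that acts with the ATPase VCP, was the 1 member of the role with an unadjusted p below 0.05, at a log2 fold change of −0.41 (SE 0.19, edgeR adjusted p = 0.50). It read 1.66, 1.65, 2.43, 1.49 and 1.70 FPKM against 0.900, 1.18, 1.33, 1.61 and 1.39 FPKM, and its log2 fold change without NIKflox 2 and 4 was −0.53. Ubqln1, a shuttle factor for ubiquitinated proteins, had FPKM ranges that did not overlap, 27.1 to 31.8 against 24.0 to 27.0, and a log2 fold change of only −0.09 (SE 0.08, edgeR adjusted p = 0.78). Ubxn6, a VCP cofactor, had a log2 fold change of 0.14.

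The pathway also holds cytosolic chaperones that handle proteins returned from the ER. Dnajb1, a J protein induced by heat shock, read 13.9, 19.9, 11.7, 17.6 and 13.0 FPKM in NIKflox and 6.13, 10.4, 9.31, 10.04 and 9.87 FPKM in NIKhKO. The ranges were apart on FPKM and on TMM-scaled counts, and the log2 fold change was −0.67 (SE 0.18, edgeR adjusted p = 0.26), or −0.44 without NIKflox 2 and 4. Hspa1a, an inducible Hsp70, had the largest absolute log2 fold change of any member, −1.962 (SE 0.77, edgeR adjusted p = 0.43). It read 17.5 and 8.58 FPKM in NIKflox 2 and 4, 3.36 FPKM in NIKflox 5, and 0.582 to 2.15 FPKM in the other 7 libraries, and its log2 fold change was −0.06 without the pair. Hspa1a has a near-identical copy, Hspa1b, with which reads may be shared, so that the level of each is uncertain. Hspa1b read 63.9 and 35.1 FPKM in NIKflox 2 and 4 and 9.49 to 31.1 FPKM elsewhere, and its log2 fold change of −0.70 was 0.26 without the pair. The constitutive cytosolic Hsp90, Hsp90ab1, read 336, 355, 275, 552 and 324 FPKM against 284, 285, 280.2, 270.2 and 258 FPKM, with NIKflox 3 among the NIKhKO values, and its log2 fold change was −0.35 (SE 0.15, edgeR adjusted p = 0.47). Its inducible relative Hsp90aa1 read 75.8 and 74.3 FPKM in NIKflox 2 and 4 and 18.4 to 40.2 FPKM elsewhere, and its log2 fold change of −0.65 was −0.01 without the pair. Hsph1, a heat shock protein that acts on Hsp70, and the small heat shock protein Cryab had log2 fold changes of −0.70 and −0.75. Their 2 highest levels were in NIKflox 2 and 4, and without the pair the log2 fold changes were −0.29 and −0.36. Cryab is abundant in heart muscle, whose markers were present in the same libraries, and the part of heart muscle in its value was not tested.

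COPII coat genes had the 1 member that was higher at an unadjusted p below 0.05. Sar1b, the GTPase isoform needed for lipoprotein export, read 109, 97.4, 99.3, 108.5 and 94.8 FPKM in NIKflox and 112, 122, 119.7, 106 and 115 FPKM in NIKhKO. The ranges overlapped through NIKhKO 4, and the log2 fold change was 0.24 (SE 0.08, unadjusted p = 0.012, edgeR adjusted p = 0.35). Its paralog Sar1a had values in the other direction, at 7.70, 6.38, 12.2, 6.53 and 5.36 FPKM against 3.58, 5.24, 5.30, 4.76 and 4.93 FPKM. The ranges were apart by a narrow gap, with NIKflox 3 the highest, and the log2 fold change was −0.61 (SE 0.21, edgeR adjusted p = 0.35), or −0.76 without NIKflox 2 and 4. The 2 genes are similar in sequence, and how reads were split between them was not given in the sources used here. Preb, the exchange factor that activates SAR1, had a log2 fold change of −0.36 (SE 0.16, edgeR adjusted p = 0.49).

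Of the kinases and death factors that the pathway lists downstream of the sensors, 0 of 8 had an unadjusted p below 0.05, a count too small to read against the 9.99% of all tested genes. Mapk8, which encodes JNK1, read 0.650 to 1.09 FPKM in NIKflox and 0.784 to 1.23 FPKM in NIKhKO, giving a log2 fold change of 0.31 (SE 0.18, edgeR adjusted p = 0.61). Bax and Map3k5 had log2 fold changes of −0.18 and 0.14. Map2k7, a kinase that activates JNK, had the largest positive value of the members, 0.34 (SE 0.54), with NIKhKO 3 and 4 at 10.4 and 8.72 FPKM and NIKflox 2 at 9.22 FPKM, and it was −0.08 without NIKhKO 3.

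ER proteins and ER stress targets outside the pathway list leaned the same way. Of 45 such genes tested, 40 were negative, the median log2 fold change was −0.17, and edgeR called 0. All tested genes were negative in 51.8%. At an unadjusted p below 0.05, 11 of the 45 (24.4%) were lower and 0 higher, against 5.14% and 4.85% of all tested genes. Sdf2l1, a BiP cofactor induced by ER stress, read 28.3, 37.9, 8.38, 44.1 and 10.3 FPKM in NIKflox and 8.68, 7.86, 10.7, 8.82 and 10.95 FPKM in NIKhKO. As with Pdia4, NIKflox 1, 2 and 4 were high and NIKflox 3 and 5 level with NIKhKO, and the log2 fold change was −1.38 (SE 0.41, edgeR adjusted p = 0.29), or −0.70 without NIKflox 2 and 4. Creld2, a secreted ER stress protein, again had NIKflox 1, 2 and 4 above every NIKhKO library, from 16.1 to 55.4 FPKM in NIKflox and from 10.9 to 17.9 FPKM in NIKhKO.

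The 3 genes of that list with the smallest p were Nucb2, Fkbp11 and Pdia5, each with FPKM ranges apart. They were the only 3 of the 45 (6.67%) with ranges apart and lower, against 1.59% of all tested genes. Ranges on TMM-scaled counts are not given for this list. Pdia5, a disulfide isomerase, read 17.6, 20.6, 19.4, 27.1 and 19.1 FPKM in NIKflox and 14.8, 16.7, 12.9, 15.7 and 13.8 FPKM in NIKhKO, a log2 fold change of −0.43 (SE 0.10, edgeR adjusted p = 0.23). Fkbp11, a prolyl isomerase of the ER, had a log2 fold change of −0.52 and the calcium-binding Nucb2 −0.83, both at an edgeR adjusted p of 0.23. Dnajb9 and Manf, both known targets of the unfolded protein response, had log2 fold changes of −0.34 and −0.65, which were 0.33 and −0.18 without NIKflox 2 and 4. Without that pair 31 of the 45 were negative and the median was −0.07. Of the genes that the rule left out, Ddit3, which encodes the stress factor CHOP, read 5.40 to 8.62 FPKM against 4.00 to 5.83 FPKM, giving a log2 fold change of −0.53 (SE 0.15, edgeR adjusted p = 0.26). Atf4, which encodes the factor upstream of it, had a log2 fold change of −0.21 (edgeR adjusted p = 0.72).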

How the data were processed

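RNA from 10 livers was sequenced, and one deposited table holds FPKM values computed by the authors and whole-number estimated counts for each library, per the file headers. A gene with no counts stands at 0.0001 FPKM. The deposited estimated counts pile up at multiples of 4, with a mean of 907 genes per library at 4 against 331 at 3 and 176 at 5 and the cause was not tested, so that totals may not equal reads. The submitters' processing notes list HISAT2 2.0.4 and StringTie 1.3.4d, beside cutadapt 1.9 and edgeR, and the human build hg38. The gene identifiers are mouse, all 142 members were found in GENCODE M21, and 122 had the same start and end there, so coordinates are read as GRCm38. The annotation used for counting was not given in the sources used here.

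Counts of the 12730 genes with a mean of at least 0.5 FPKM were fitted with edgeR 4.0.16 in R 4.3.3 (quasi-likelihood test, TMM, two-sided, Benjamini-Hochberg over all genes tested, called below 0.05). Each SE was derived from the log2 fold change and its F statistic. Alternatives used limma 3.58.1, DESeq2 1.42.0, other filters and scalings, and left-out libraries. Scaling ranges by TMM was chosen after seeing the data. The fitting script was also run on simulated counts with known changes. The members and lists, and the doubt about NIKflox 2 and 4, were chosen with earlier results of these data known. Named genes were fixed core genes of the pathway, members with FPKM ranges apart, the 3 smallest p-values of each role and the largest change in each direction. Others named in the text were chosen after their values were seen. The labels name no litters or cages, and a p-value here covers only the spread among these 10 libraries, part of which may be technical. No label states whether equal replicate numbers mark paired libraries, and the main fit treated them as unpaired. Protein sequences were not used here.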

Additional observations from a re-analysis of the deposited data

Results flagged for a closer look

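In 7 of 96 groups of 5 libraries (48 named members in each genotype) the highest or lowest library was separated from its nearest neighbour by more than 0.71 of the group's range, and chance gives about 1 in 20. The high ones were P4hb in NIKflox 4 at 735 FPKM, Erp29 in NIKflox 4 at 8.49 FPKM, Map2k7 in NIKflox 2 at 9.22 FPKM, Yod1 in NIKflox 3 at 2.43 FPKM and Pdia3 in NIKhKO 4 at 110.3 FPKM. The low ones, both in NIKhKO 1, were Dnajb1 at 6.13 FPKM and Canx at 43.5 FPKM.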

How the results depend on the processing

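The count of members called was 0 under every alternative run except DESeq2, which called 2. Over all tested genes 3 were called, against 207 with DESeq2, 6 with robust shrinkage, 5 with voom sample weights, 0 with limma on log2(FPKM + 1) or log2(FPKM + 0.1), 1 without NIKflox 2 and 4, and 0 to 24 when 1 library was left out (24 without NIKhKO 4). With the replicate number as a replicate block 2 genes and 0 members were called. Same-numbered libraries of the 2 genotypes did not deviate together (correlations from −0.32 to 0.03). Of the members, 27 (19.0%) were lower at an unadjusted p below 0.05, where 5.14% of all tested genes were. Without NIKflox 2 and 4 it was 8 (5.63%, all tested genes 4.16%). With voom sample weights it was 14 (9.86%, all tested genes 6.09%), and with the replicate block 18 (12.7%, all tested genes 3.97%). With 1 library left out it ran from 13 (9.16%, all tested genes 4.35%) to 34 (23.9%, all tested genes 4.43%). The median of −0.09 stayed negative under all 20 alternatives, between −0.10 and −0.07 when 1 library was left out, −0.02 without NIKflox 2 and 4 and −0.15 with limma on log2(FPKM + 0.1). FPKM ranges were apart and lower for 11 members (7.75%), where 1.59% of all tested genes were. On TMM-scaled counts this held for 3 members (2.11%) and 0.864% of all tested genes. With 1 library left out 11 to 18 members (7.75% to 12.7%) had FPKM ranges apart and lower, where 2.06% to 3.2% of all tested genes did. At most 1 member was then apart and higher. Of 48 named members 10 changed sign under at least 1 alternative, none of them called. The cause of these changes was not tested.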
